A study of Mus musculus with 41 samples.

Results

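Glycam1, Ppp1r1a and Pde1b are consecutive protein-coding genes near the end of mouse chromosome 15, and were taken as the 3 rows of the deposited expression table that carry these names, of 34591 rows in all. They were chosen on values measured here: Glycam1 and Ppp1r1a for their higher FPKM in K27M tumors, and the 3 together for how their FPKM varied across tumors. Their tumor contrast and their correlations with each other are therefore given as description, with no test.

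Glycam1 encodes a mucin-like glycoprotein that endothelial cells of lymph node venules and lactating mammary gland secrete, and whose sulfated sugars are bound by L-selectin on lymphocytes. Ppp1r1a encodes inhibitor 1 of protein phosphatase 1, which blocks the phosphatase once protein kinase A has phosphorylated it. Pde1b encodes a phosphodiesterase that calcium and calmodulin switch on and that breaks down cAMP and cGMP, the messengers upstream of protein kinase A and G, and it is best known in the brain for its abundance in the striatum. The pair thus acts in one signaling cascade at opposite ends, whereas Glycam1 has no known place in it.

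RNA was sequenced from 20 K27M tumors and 9 WT-Tag tumors of the mouse brainstem, and from 3 K27M and 3 WT-Tag neurosphere cultures each of forebrain and hindbrain, in units of FPKM, the fragments assigned to a gene after division by transcript length and library size. K27M and WT-Tag name 1 knock-in copy of H3f3a, written H3f3aLSL-K27M-Tag/+ or H3f3aLSL-WT-Tag/+, in which Cre removes a stop cassette so that tagged histone H3.3 is made with lysine 27 changed to methionine or with its normal sequence. All tumors, WT-Tag included, also had Nestin-creERT2, the activated receptor LSL-PDGFRαV544ins and Trp53flox/flox, so Cre acted in Nestin-expressing cells and the controls are themselves tumors without p53. The cultures, floating neural precursor cells from e15.5 embryos, carried Nestin-cre and the knock-in allele alone, in 3 experiments. Experiment 3 set female K27M against male WT-Tag cultures, so genotype and sex cannot be told apart there. Gene FPKM does not separate the knock-in copy of H3f3a from the other copy. The tumor-bearing mice were of an age not given in the sources used here. Each tumor library came from a piece of tissue, and its cell content was not controlled.

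The sex-linked transcripts of 2 WT-Tag tumors went against their labels. Tumor 8, labelled female, had 0.031 FPKM of Xist and 6.90 FPKM summed over Y-linked genes, and tumor 9, labelled male, had 54.5 and 0.007 FPKM. Results that rest on these tumors are given with and without them. Relative sequencing depth, read from the size of the smallest FPKM steps, ran from 0.407 to 1.79 of the median library, and its median was 0.92 for K27M and 1.27 for WT-Tag tumors.

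The start regions of Glycam1 and Pde1b are shown because these neighbors differ both in how widely they were expressed and in the sequence around their starts. Each window runs from 250 bases before to 50 bases after the start, from RefSeq on build GRCm38.p6, 5′ to 3′ on the gene's own strand, with each CpG in capitals. The Glycam1 window lies at chr15:103565032-103565331 on the minus strand and the first of 3 Pde1b windows at chr15:103502784-103503083 on the plus strand.
Glycam1: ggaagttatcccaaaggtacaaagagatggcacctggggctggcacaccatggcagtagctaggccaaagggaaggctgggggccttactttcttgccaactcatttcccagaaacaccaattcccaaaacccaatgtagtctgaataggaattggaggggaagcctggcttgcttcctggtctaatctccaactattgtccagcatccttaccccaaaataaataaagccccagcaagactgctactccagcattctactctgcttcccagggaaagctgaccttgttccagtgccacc
Pde1b: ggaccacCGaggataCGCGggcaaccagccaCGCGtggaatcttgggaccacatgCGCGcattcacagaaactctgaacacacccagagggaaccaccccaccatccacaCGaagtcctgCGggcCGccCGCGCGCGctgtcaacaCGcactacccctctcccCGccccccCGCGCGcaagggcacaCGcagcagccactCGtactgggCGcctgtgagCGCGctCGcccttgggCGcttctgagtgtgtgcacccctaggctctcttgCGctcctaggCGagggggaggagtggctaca
The Glycam1 window holds 0 CpG, as do 5.43% of the 32851 windows of this length in the table, whose median is 7. The Pde1b window holds 28 CpG, and 14.2% of windows hold as many. The other 2 Pde1b windows hold 1 and 2 CpG. Motifs were searched by their letters on both strands. The GC box letters GGGCGG were found in the first Pde1b window and in 35.7% of all windows. The TATA box letters TATAAA were found in 1 of the other Pde1b windows and in 13.6% of all windows. The letters TGACG, one arm of the cAMP response element, were found in none of the Pde1b windows and in 20.8% of all windows. The Glycam1 window had none of these. No window for Ppp1r1a was at hand. Pde1b is read on the plus strand toward Ppp1r1a and Glycam1, which are both on the minus strand, and the gene models of GENCODE release M21 do not overlap. The use of strand in counting, not given in the sources used here, decides whether reads past the end of Pde1b or Ppp1r1a were counted for the other.

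In tumors Glycam1 was found at a few FPKM in nearly all K27M tumors and near the limit of detection in nearly all WT-Tag tumors. The K27M tumors had a lowest level of 0.114, a median of 2.98 and a highest of 7.07 FPKM, and the WT-Tag tumors had 0.098, 0.191 and 1.65 FPKM. Of the 20 K27M tumors, 17 exceeded the highest WT-Tag tumor and 19 the WT-Tag median, so the groups overlapped through K27M tumors 1, 4 and 6, at 0.114, 0.405 and 0.986 FPKM, and WT-Tag tumor 11, at 1.65 FPKM. Glycam1 averaged 3.09 ± 1.74 FPKM in K27M tumors (SD, n = 20) and 0.384 ± 0.491 FPKM in WT-Tag tumors (SD, n = 9), a ratio of means of 8.03. It entered the fit through the K27M group, with 17 K27M tumors and 1 WT-Tag tumor at 1 FPKM or more. The difference of K27M minus WT-Tag was 1.47 ± 0.25 (SE) on the log2(FPKM + 1) scale, which compresses low values, and 2.77 with 0.1 added in place of 1.

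The FPKM steps of Glycam1 could be read as whole fragments, within 0.1 of a whole number in 22 of 22 libraries with few fragments. The FPKM worth of 1 fragment was chosen for the best such fit over these same libraries, so their closeness is no independent check. K27M tumors held between 4 and 297 Glycam1 fragments with a median of 54.5, and WT-Tag tumors held between 3 and 62 with a median of 6. K27M tumor 1, with 4 fragments, had a relative depth of 1.49.

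**Figure D1:**
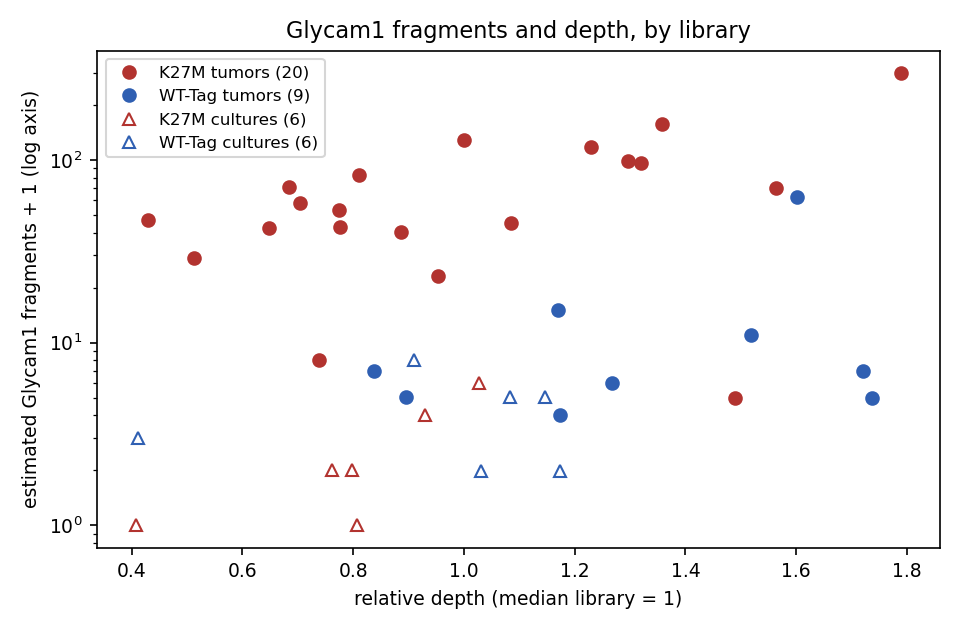
Estimated Glycam1 fragments plus 1 (log axis) against relative depth (median library = 1) for each library; filled circles are tumors, open triangles cultures, red K27M and blue WT-Tag. K27M tumors hold 4 to 297 fragments and WT-Tag tumors 3 to 62, at overlapping depths, and no culture holds more than 7.

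Ppp1r1a was expressed in every tumor and was higher in the K27M group. Its lowest, median and highest levels were 6.81, 10.4 and 14.2 FPKM in K27M tumors, against 1.61, 6.24 and 8.07 FPKM in WT-Tag tumors. The WT-Tag median was exceeded by all 20 K27M tumors and the highest WT-Tag tumor by 17, whereas K27M tumors 1, 14 and 22, at 8.05, 7.98 and 6.81 FPKM, lay within the WT-Tag range. The means were 10.5 ± 1.99 FPKM (SD, n = 20) in K27M tumors and 5.82 ± 2.12 FPKM (SD, n = 9) in WT-Tag tumors, a log2 difference of 0.82 ± 0.15 (SE). The low end of the WT-Tag group was set by tumors 28 and 8, at 1.61 and 3.31 FPKM.

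Pde1b varied widely in both genotypes and the groups overlapped over most of their range. It ran from 3.57 through a median of 14.3 to 26.5 FPKM in K27M tumors and from 2.53 through 8.47 to 18.2 FPKM in WT-Tag tumors. Only 7 of 20 K27M tumors lay above the highest WT-Tag tumor. Its mean was 13.7 ± 7.16 FPKM (SD, n = 20) in K27M tumors and 9.90 ± 5.57 FPKM (SD, n = 9) in WT-Tag tumors, with a log2 difference of 0.43 ± 0.31 (SE) and a range of −0.19 to 1.05 within 2 SE. The 3 differences were not compared with each other by a test.

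Of the 3 genes, Glycam1 and Ppp1r1a were among the 13 of 15360 tested genes with an adjusted p under 0.05 (limma, Benjamini-Hochberg adjustment), which is 0.0846% of genes tested. In the upward direction 7 genes passed, or 0.0456%. Since this contrast served to choose the genes, nothing is read from that count. No tested gene had all 20 K27M tumors on one side of all 9 WT-Tag tumors (0%).

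Without WT-Tag tumors 8 and 9 the differences were 1.40 for Glycam1, 0.75 for Ppp1r1a and 0.24 for Pde1b. The remaining 7 WT-Tag tumors averaged 0.459 ± 0.541 FPKM of Glycam1, 6.21 ± 2.19 FPKM of Ppp1r1a and 11.3 ± 5.56 FPKM of Pde1b (SD). Among tumors labelled female, Ppp1r1a averaged 11.4 ± 1.72 FPKM in K27M (n = 11) and 5.35 ± 2.44 FPKM in WT-Tag tumors (n = 6), and among those labelled male 9.42 ± 1.81 (n = 9) and 6.78 ± 1.08 FPKM (n = 3). Its log2 difference was 1.07 in tumors labelled female and 0.41 in those labelled male. Glycam1 averaged 3.48 ± 1.79 FPKM in K27M and 0.416 ± 0.608 FPKM in WT-Tag tumors labelled female, and 2.61 ± 1.65 and 0.321 ± 0.181 FPKM in those labelled male. Pde1b averaged 15.6 ± 6.14 FPKM in K27M and 9.55 ± 5.59 FPKM in WT-Tag tumors labelled female. In tumors labelled male it averaged 11.4 ± 7.98 FPKM in K27M and 10.6 ± 6.69 FPKM in WT-Tag. These groups place tumors 8 and 9 by their labels. Without tumor 8 the differences in tumors labelled female were 1.58 for Glycam1, 0.98 for Ppp1r1a and 0.59 for Pde1b, with 5 WT-Tag tumors. Without tumor 9 those in tumors labelled male were 1.18, 0.30 and −0.33, with 2 WT-Tag tumors, so Pde1b then averaged 11.4 FPKM in K27M and 13.0345 FPKM in WT-Tag tumors.

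**Figure D2:**
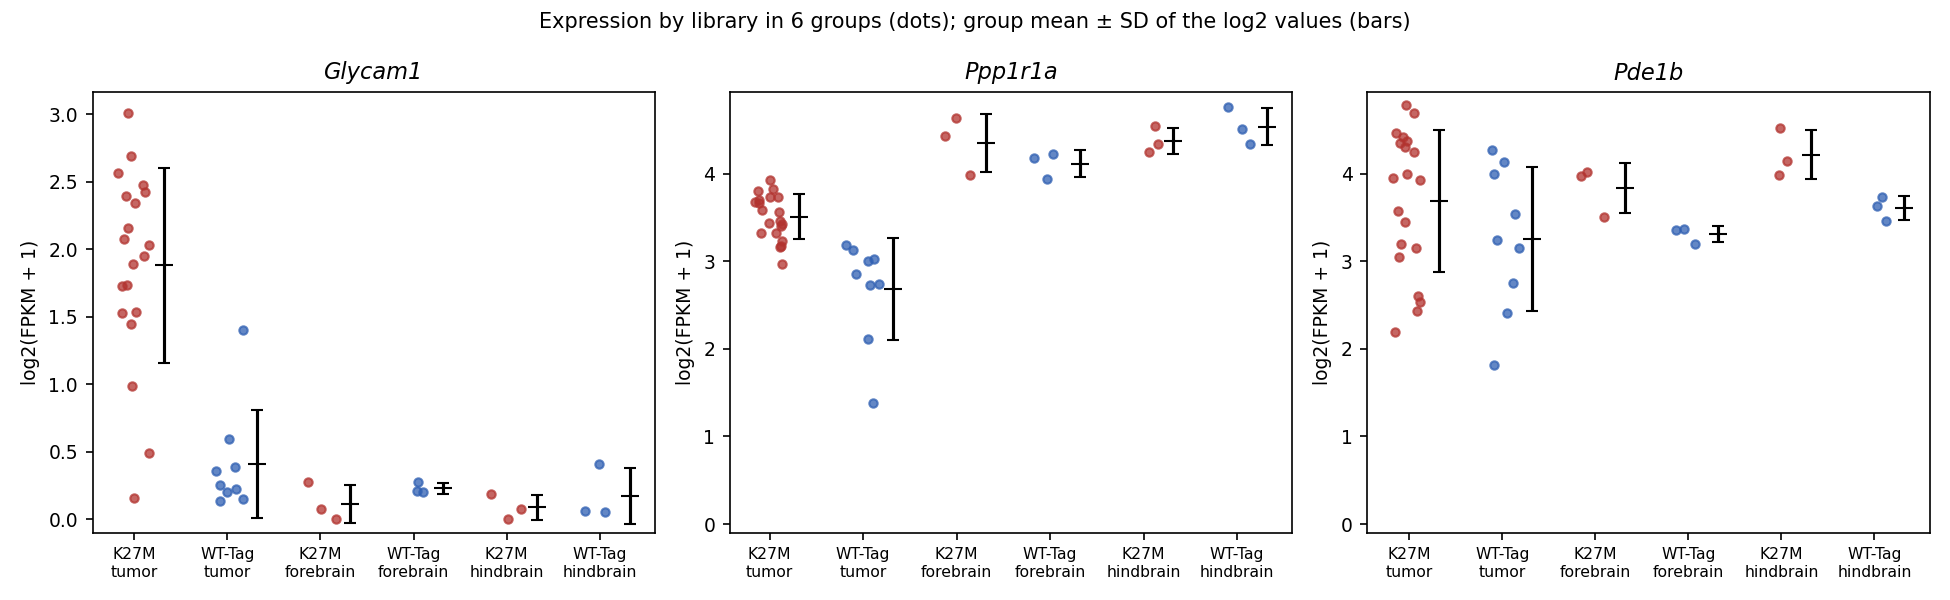
Levels of the 3 genes as log2(FPKM + 1) in each library of the 6 groups (dots; red K27M, blue WT-Tag), with the group mean ± SD beside them (20 and 9 tumors, 3 cultures per group). Glycam1 stands above the WT-Tag median in 19 of 20 K27M tumors and is near 0 in all cultures, Ppp1r1a is highest in cultures, and Pde1b is above WT-Tag in the K27M cultures of both regions.

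Marker lists of brain cell types ran in both directions between the tumor groups, and 0 of their members passed the test in tumors. Of 19 neuron markers, 18 had a higher mean log2 level in K27M tumors, against 46.6% of all genes tested. Their summed level ran from 163 to 1354 FPKM with a median of 666 in K27M tumors, and from 133 to 782 FPKM with a median of 402 in WT-Tag tumors. All 14 mature oligodendrocyte markers pointed the same way, at 679 to 1799 FPKM in K27M tumors and 351 to 1762 FPKM in WT-Tag tumors. Of 14 astrocyte markers 13 were higher, with sums of 313 to 1924 FPKM in K27M tumors and 161 to 1747 FPKM in WT-Tag tumors. Microglia and macrophage markers ran the other way, with 3 of 17 higher and a median sum of 538 FPKM in K27M tumors and 659 FPKM in WT-Tag tumors. Striatal neuron markers had 7 of 8 tested members higher, but a median sum of 45.6 FPKM in K27M tumors and 56.3 FPKM in WT-Tag tumors. With the neuron marker level as a covariate the log2 differences were 1.31 for Glycam1, 0.73 for Ppp1r1a and 0.11 for Pde1b. With the mature oligodendrocyte marker level they were 1.17, 0.66 and −0.15. In such bulk tissue, fewer cells of a type and less RNA per cell cannot be told apart.

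Markers of lymphocytes, the cells that bind Glycam1, were low. They summed to between 0.848 and 9.04 FPKM in K27M tumors and between 0.851 and 7.89 FPKM in WT-Tag tumors. Endothelial markers, of the wider cell class that makes Glycam1 in lymph nodes, were present in all tumors, at 32.6 to 79.6 FPKM in K27M and 39.2 to 57.0 FPKM in WT-Tag tumors, with 10 of 12 tested members higher in K27M and 0 past the threshold. The 9 mammary gland markers other than Glycam1 summed to between 0.23 and 12.4 FPKM in K27M tumors and between 0.393 and 15.2 FPKM in WT-Tag tumors, and 0 of them passed the filter. WT-Tag tumor 11, the one with high Glycam1, also had the highest sum, most of it from the milk casein genes Csn2 and Csn3 at 5.99 and 8.32 FPKM. K27M tumor 21 had 10.5 FPKM of Csn3 and 2.71 FPKM of Glycam1, whereas K27M tumor 5, with the highest Glycam1, had 0.026 FPKM of Csn2 and 0.254 FPKM of Csn3. Without WT-Tag tumor 11 the other 8 WT-Tag tumors averaged 0.226 ± 0.137 FPKM of Glycam1 (SD), 18 of 20 K27M tumors lay above all of them, and the log2 difference was 1.59. The part of these markers in the Glycam1 levels was not tested.

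The 3 genes varied in the same direction across tumors, but loosely. Over all 29 tumors, Spearman's rho was 0.75 for Glycam1 and Ppp1r1a, 0.55 for Glycam1 and Pde1b, and 0.53 for Ppp1r1a and Pde1b (Pearson's r of 0.68, 0.57 and 0.59). These pooled values contain the genotype difference, and Ppp1r1a then ranked 7th among 15359 genes by its rho with Glycam1. Within the 20 K27M tumors the same pairs had rho of 0.52, 0.54 and 0.52 (r of 0.48, 0.63 and 0.53). There Ppp1r1a ranked 1293rd and Pde1b 1104th among genes for likeness to Glycam1, so many genes elsewhere followed Glycam1 more closely than its neighbors did. Leaving out the 2 tumors farthest from the median of the first gene of the pair gave r of 0.41, 0.43 and 0.59. Points in these correlations share a library, so cell content and depth enter both axes.

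Within the 9 WT-Tag tumors the pairs had rho of 0.23, 0.57 and 0.70 (r of 0.21, 0.49 and 0.80). The value for Ppp1r1a and Pde1b rested on WT-Tag tumors 28 and 8, which were low in both genes, and r was 0.18 without them. Without tumors 8 and 9 the r of the 3 pairs was 0.12, 0.40 and 0.79.

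**Figure D3:**
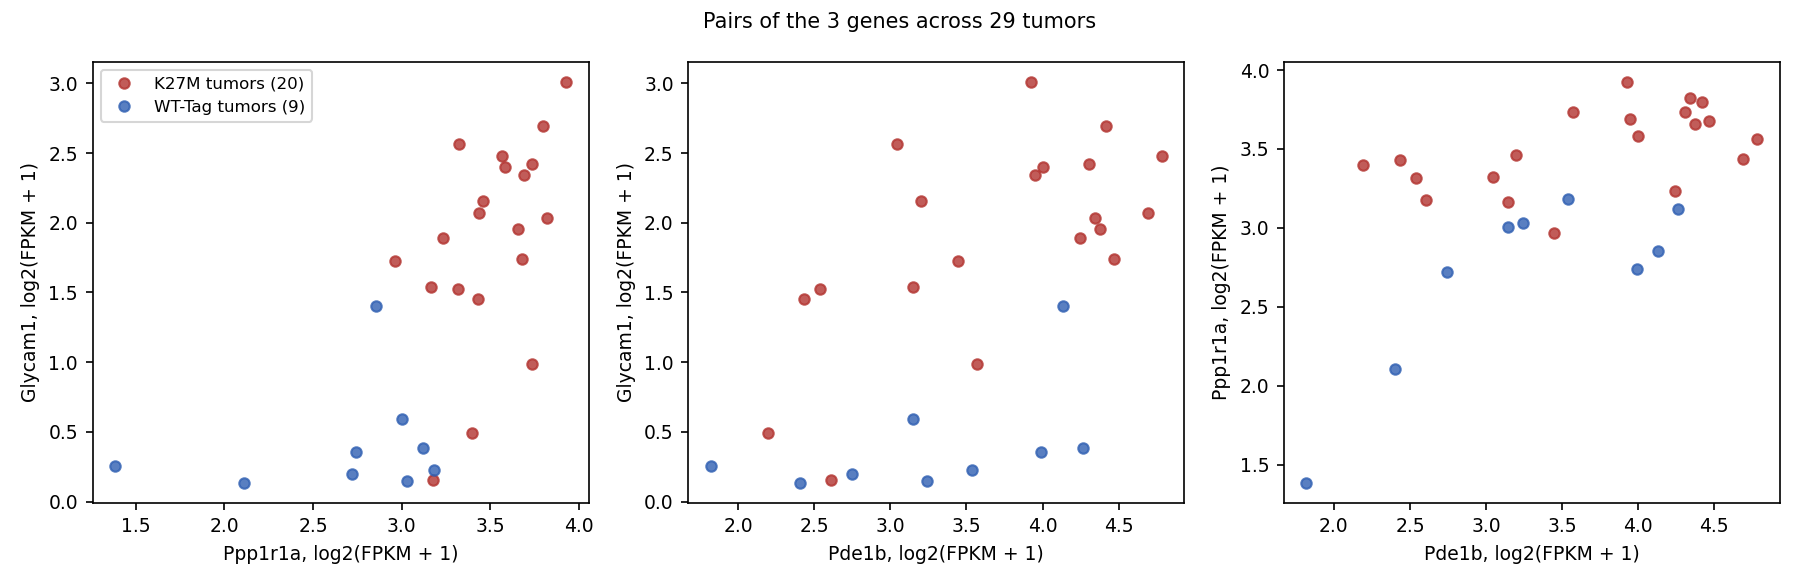
Each pair of the 3 genes as log2(FPKM + 1) in 29 tumors, with 1 dot per tumor, red for 20 K27M and blue for 9 WT-Tag tumors. Within K27M tumors Spearman's rho is 0.52, 0.54 and 0.52 from left to right, and 8 of 9 WT-Tag tumors lie at or below 0.51 FPKM of Glycam1, the exception being tumor 11 at 1.65 FPKM.

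Pde1b followed the neuron marker level of a tumor closely. Its rho with the mean level of the 19 neuron markers was 0.91 within K27M tumors and 0.87 within WT-Tag tumors (r of 0.95 and 0.88). Without WT-Tag tumors 8 and 9 the r within WT-Tag tumors was 0.95. Its rho with astrocyte and mature oligodendrocyte markers within K27M tumors was 0.81 and 0.79, and with markers of oligodendrocyte precursors, the cell type most like the tumor cells of such gliomas, −0.71. Markers of striatal medium spiny neurons, in which Pde1b is abundant, gave rho of 0.83 within K27M and 0.92 within WT-Tag tumors. In all, 462 genes had rho of at least 0.9 with Pde1b in K27M tumors. These values cover tumors only. In cultures, Pde1b group means ran from 8.92 to 17.8 FPKM, with neuron marker sums of at most 85.7 FPKM.

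Ppp1r1a and Glycam1 followed the neuron marker level less closely than Pde1b did. Their rho was 0.60 and 0.57 within K27M tumors, with the same values of 0.60 and 0.57 within WT-Tag tumors. Some other lists gave higher rho within K27M tumors. Astrocyte markers gave 0.74 for Ppp1r1a and 0.64 for Glycam1 within K27M tumors, and 0.67 and 0.37 within WT-Tag tumors. Within K27M tumors striatal neuron markers gave 0.65 and 0.64, ependyma and choroid plexus markers 0.56 and 0.67, and mature oligodendrocyte markers 0.39 and 0.49. For Ppp1r1a and Glycam1, 0 genes reached rho of 0.9 in K27M tumors. With the neuron marker level as a covariate, as given above, the log2 differences were 1.31 for Glycam1, 0.73 for Ppp1r1a and 0.11 for Pde1b. Glycam1 and Ppp1r1a were chosen on this contrast, and the part of neuron content in it was not tested. Once the neuron marker level had been regressed out within genotype, r within K27M tumors was 0.18 for Glycam1 and Ppp1r1a, 0.26 for Glycam1 and Pde1b, and −0.29 for Ppp1r1a and Pde1b.

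**Figure D4:**
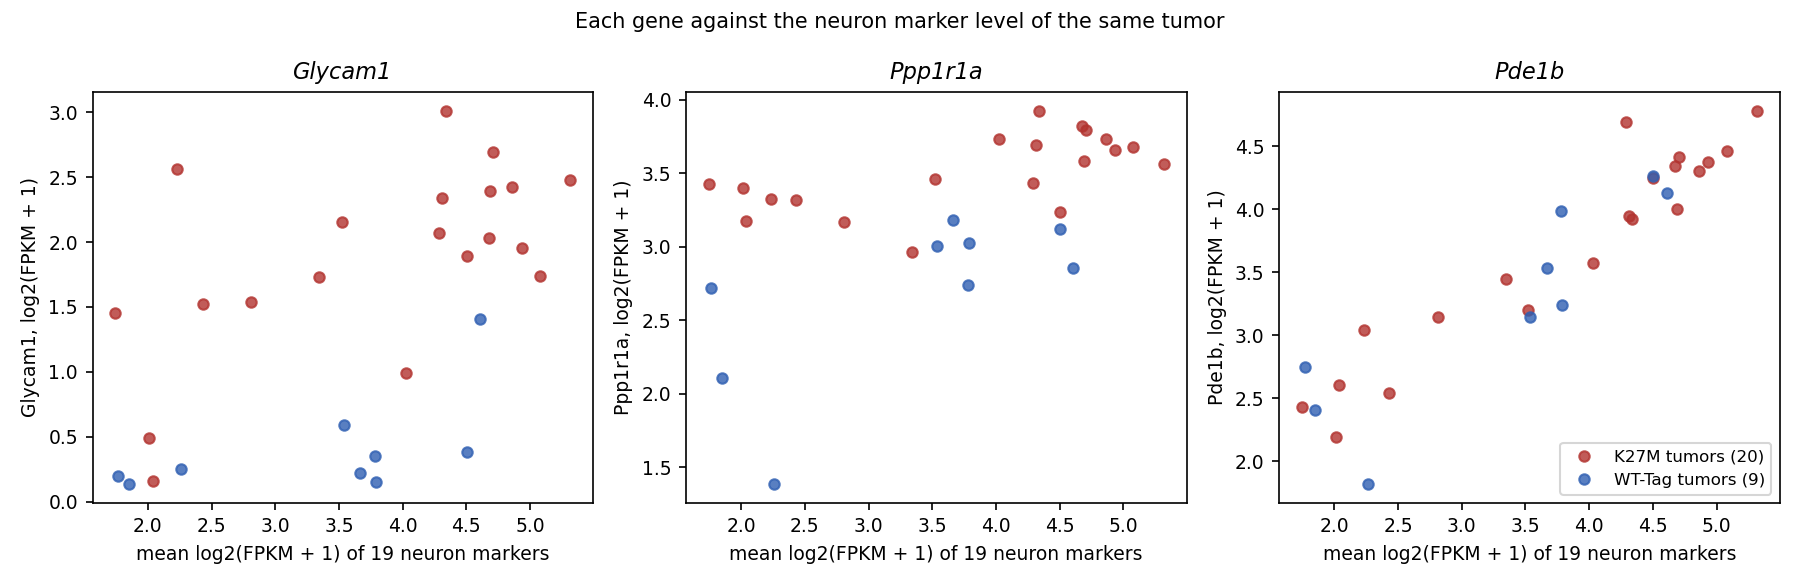
Log2(FPKM + 1) of each gene against the mean log2(FPKM + 1) of 19 neuron markers in the same tumor, red for 20 K27M and blue for 9 WT-Tag tumors. Pde1b follows the neuron markers in both genotypes, with rho of 0.91 and 0.87, and rho is 0.60 for Ppp1r1a and 0.57 for Glycam1 in each genotype.

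The 5 genes most like each member by rho over the K27M tumors did not include a neighbor. For Glycam1 they were Rtn4rl1, a relative of the Nogo receptor, at 0.83, Atg9b at 0.82, Papss2, which makes the sulfate donor of the cell, at 0.80, Rnf167 at 0.79 and Adamtsl2 at 0.79. In WT-Tag tumors these had rho of 0.65, 0.67, 0.68, 0.47 and 0.27. For Ppp1r1a they were the sterol sensor Insig2 at 0.85, A330023F24Rik and Tbcel at 0.83 each, the GABA-A receptor subunit Gabrb1 at 0.83 and D230004N17Rik at 0.83. Their rho in WT-Tag tumors was 0.60, 0.83, 0.52, 0.63 and 0.82. For Pde1b they were Nceh1, a cholesterol ester hydrolase, Cdkl1 and Habp4 at 0.99 each, and Gm514 and Pitpnm3 at 0.98 each. In WT-Tag tumors these had 0.47, 0.92, 0.88, 0.97 and 0.93. The likeness of Nceh1 to Pde1b was thus far looser in the WT-Tag tumors, where it ranked 3025th of 15359 genes.

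None of the tested genes around the 3 passed the test between tumor genotypes. Of 11 further protein-coding genes, 10 lie before Pde1b and 1, after Glycam1, is the only one left on that side. Only 7 passed the filter in tumors, and 0 of 7 passed the test, with log2 differences between −0.19 and 0.20. Nckap1l, the direct neighbor of Pde1b and a gene of blood and microglial cells, averaged 5.95 ± 2.12 FPKM in K27M tumors (SD, n = 20) and 7.04 ± 2.75 FPKM in WT-Tag tumors (SD, n = 9). On the other side of the 3 genes Spt1, listed as Mucl2 in current annotation, reached at most 0.224 FPKM in K27M tumors and 0.072 FPKM in WT-Tag tumors. The other 3 below the filter were Nfe2, Gtsf1 and BC048502. In cultures 0 of 5 tested flanking genes passed in either region, with log2 differences between −0.05 and 0.27 in forebrain and between 0.03 and 0.48 in hindbrain, where Hnrnpa1 was highest (adjusted p = 0.0526, limma).

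Among flanking genes, only Zfp385a, a zinc finger gene 5 positions before Pde1b, varied with the 3 genes in the same direction in both genotypes. Its rho with Pde1b was 0.88 within K27M tumors, rank 623 of 15359, and 0.52 within WT-Tag tumors. With Glycam1 it was 0.54 and 0.50, and with Ppp1r1a 0.55 and 0.15. It averaged 3.47 ± 1.14 FPKM in K27M tumors and 2.91 ± 1.19 FPKM in WT-Tag tumors (SD). The splicing factor gene Hnrnpa1 ran the other way, with rho to Pde1b of −0.77 within K27M and −0.58 within WT-Tag tumors. Itga5 was likewise negative with all 3 genes in both genotypes, at −0.35 and −0.55 with Pde1b. The coatomer gene Copz1 had rho to Pde1b of −0.69 within K27M tumors but 0.03 within WT-Tag tumors. Closeness on the chromosome and likeness across tumors thus did not run in parallel: Nckap1l and Itga5, nearer to Pde1b than Zfp385a is, had rho of −0.46 and −0.35 with it in K27M tumors.

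**Figure D5:**
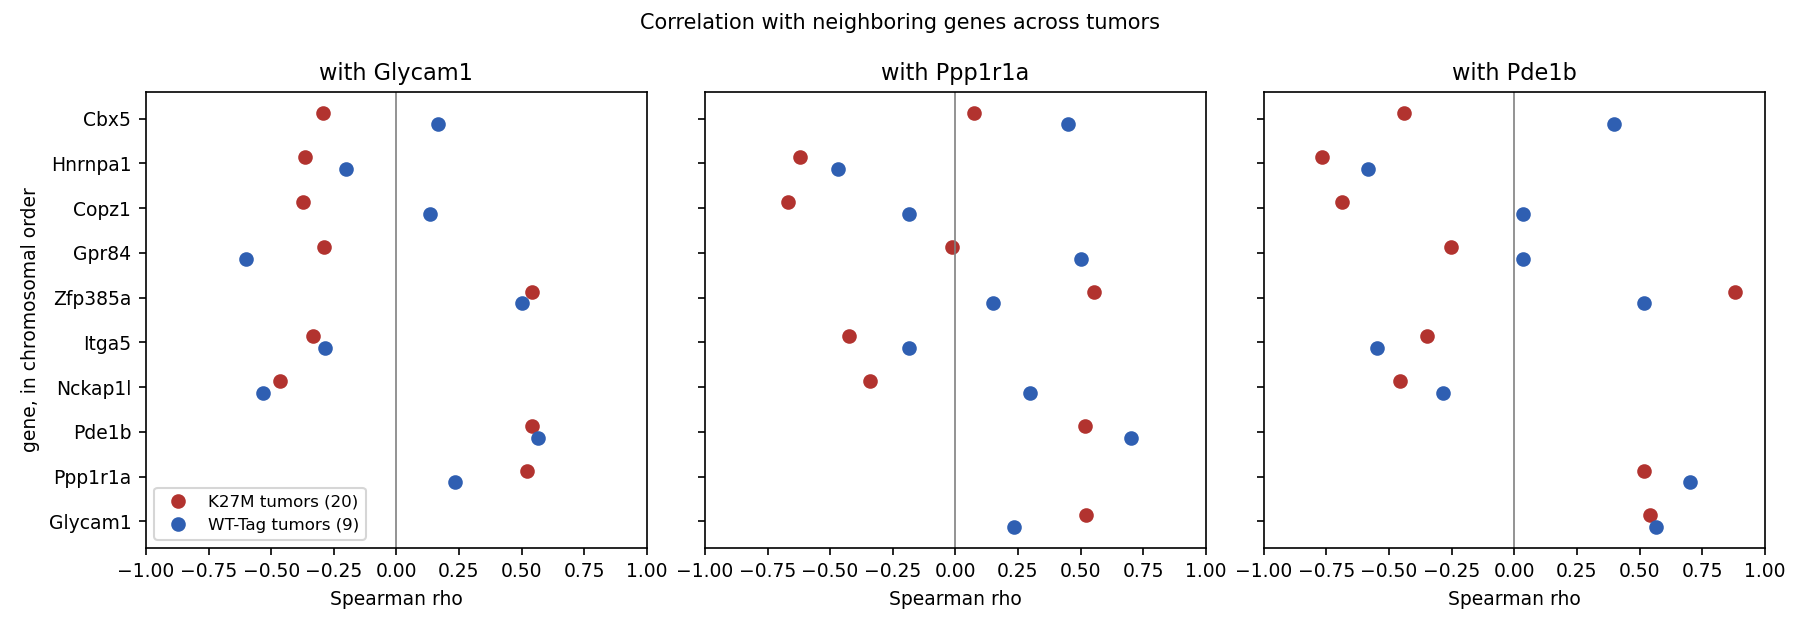
Spearman's rho of each of the 3 genes with its expressed neighbors, in chromosomal order, within 20 K27M tumors (red) and 9 WT-Tag tumors (blue). Zfp385a and the 3 genes themselves lie right of 0 throughout, and Hnrnpa1 and Itga5 lie left of 0 throughout, Hnrnpa1 down to −0.77.

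In neurospheres Glycam1 was at or near the detection limit in every library. K27M forebrain cultures had 0, 0.054 and 0.208 FPKM in experiments 1 to 3, and WT-Tag forebrain cultures 0.208, 0.149 and 0.158 FPKM. K27M hindbrain cultures had 0.056, 0.138 and 0 FPKM, and WT-Tag hindbrain cultures 0.329, 0.041 and 0.036 FPKM. The groups overlapped in both regions and held 6 and 10 fragments in forebrain and 4 and 9 in hindbrain, K27M first in each, between 0 and 7 per library. For the 2 libraries at 0, a limit of 3 fragments allows up to 0.314 FPKM in the forebrain and 0.158 FPKM in the hindbrain culture, counting error only. Glycam1 was below the filter there and no difference was detectable at this depth.

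Ppp1r1a was higher in all 12 cultures than in any tumor. The margin was narrow, with 14.343 FPKM in the lowest culture and 14.21 FPKM in the highest tumor. How many genes separate cultures from tumors in this way was not counted, so nothing particular to Ppp1r1a is read from it. Among the cultures, Ppp1r1a did not differ detectably by genotype. In experiments 1 to 3, forebrain cultures had 20.6, 23.8 and 14.8 FPKM in K27M and 14.3, 17.6 and 17.2 FPKM in WT-Tag, with overlap. The log2 difference was 0.24 ± 0.17 (SE; adjusted p = 0.583, limma), within 2 SE of −0.10 to 0.57. Hindbrain cultures had 17.999, 19.2 and 22.3 FPKM in K27M and 19.2, 21.7 and 26.1 FPKM in WT-Tag, a log2 difference of −0.16 ± 0.17 (adjusted p = 0.543, limma), from −0.50 to 0.17 within 2 SE. The hindbrain difference thus pointed the other way from that in tumors, but neither region passed the test. In tumors the difference was 0.82, from 0.52 to 1.13 within 2 SE, a range that overlaps that of the forebrain cultures. The tumor value comes from another tissue and fit and from the contrast that chose the gene, and was not compared by a test.

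In both regions every K27M culture had more Pde1b than every WT-Tag culture, and the difference passed the test in hindbrain. Forebrain cultures of experiments 1 to 3 had 14.7, 15.2 and 10.4 FPKM in K27M, all above the 8.19, 9.22 and 9.35 FPKM in WT-Tag. The means were 13.4 ± 2.66 and 8.92 ± 0.637 FPKM (SD, n = 3 each), a log2 difference of 0.52 ± 0.16 (SE) that did not pass the test (adjusted p = 0.208, limma). Hindbrain cultures had 14.8, 16.7 and 21.965 FPKM in K27M, all above the 11.4, 10.001 and 12.3 FPKM in WT-Tag. The means were 17.8 ± 3.71 and 11.2 ± 1.14 FPKM (SD, n = 3 each), and the log2 difference of 0.61 ± 0.16 passed (adjusted p = 0.0319, limma).

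A call in the hindbrain was common, so Pde1b's share in it is that of many genes. In forebrain cultures 0 of the 2 tested members were called, against 0.356% of 13190 genes, and in hindbrain cultures 1 of 2, against 13.5%, or 8.42% in the upward direction. Groups did not overlap for 24.9% of genes in the forebrain and for 28% in the hindbrain, with K27M higher for 15% and 16.9%. The Pde1b effect was not shown to depend on region, since the hindbrain effect minus the forebrain effect was 0.09 ± 0.23 (adjusted p = 0.9996, limma), and 0.0379% of genes passed that test. For Ppp1r1a that difference was −0.40 ± 0.24 (adjusted p = 0.912, limma).

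The hindbrain call for Pde1b was fragile. It was lost on leaving out the culture of experiment 2 or 3 of either genotype, with log2 differences down to 0.46, and without experiment 3 as a whole (0.52, adjusted p = 0.103, limma). The same direction in all 6 pairs of cultures within an experiment and region follows from the lack of overlap and adds nothing to it. Neuron markers in hindbrain cultures summed to 75.5 to 85.7 FPKM in K27M and 70.8 to 73.0 FPKM in WT-Tag cultures, with 0 of 6 tested past the threshold. Of 13 tested astrocyte markers 9 passed the test downward. Their list summed to 374 to 416 FPKM in K27M and 685 to 929 FPKM in WT-Tag cultures. Precursor markers passed downward for 6 of 13 and mature oligodendrocyte markers for 3 of 8, against 5.13% of all genes tested. By direction alone, 2 of 13 astrocyte, 3 of 13 precursor and 0 of 8 mature oligodendrocyte markers were higher in K27M cultures. Mog was at 0 in all K27M hindbrain cultures. The part of these shifts in the Pde1b difference was not tested.

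No difference between regions passed the test for either gene. In WT-Tag cultures the 3 hindbrain libraries lay above the 3 forebrain libraries for Ppp1r1a and for Pde1b, as in 5.99% of genes in that direction and 14.7% in either. The log2 differences of hindbrain minus forebrain were 0.42 ± 0.17 (adjusted p = 0.359, limma) and 0.30 ± 0.16 (adjusted p = 0.579), and 1.82% of genes passed. In K27M cultures the groups overlapped for both, while for 31.9% of genes they did not, with 0.02 ± 0.17 for Ppp1r1a (adjusted p = 0.957) and 0.38 ± 0.16 for Pde1b (adjusted p = 0.187), and 7.92% of genes passed.

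Ordered by mean level, the 6 groups gave a different sequence for each gene. Glycam1 was highest in K27M tumors, above WT-Tag tumors by more than their summed SD. Among the WT-Tag tumors and 4 culture groups after them, no neighbors in the order differed beyond their summed SD. For Ppp1r1a the order was WT-Tag hindbrain at 22.4 FPKM, K27M hindbrain and K27M forebrain at 19.8 FPKM each, and WT-Tag forebrain at 16.4 FPKM, neighbors that overlapped, then K27M tumors at 10.5 and WT-Tag tumors at 5.82 FPKM, each a step of more than the summed SD. For Pde1b the order was K27M hindbrain, K27M tumors, K27M forebrain, WT-Tag hindbrain, WT-Tag tumors and WT-Tag forebrain, and no neighbors in it differed beyond their summed SD.

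The rest of the cyclic nucleotide cascade was described from fixed lists. Among 17 tested phosphodiesterase genes other than Pde1b, 0 passed in tumors and in 13 tested in forebrain cultures, and 1 of 13 rose in hindbrain cultures. That gene was Pde1c, a calmodulin-regulated relative of Pde1b, at 5.94 ± 2.23 FPKM in K27M and 2.95 ± 0.863 FPKM in WT-Tag hindbrain cultures (SD, n = 3 each), a log2 difference of 0.79 ± 0.21 (adjusted p = 0.0311, limma). The third relative, Pde1a, had the largest difference of the list in tumors, at 3.82 ± 1.63 FPKM in K27M (n = 20) and 1.90 ± 0.885 FPKM in WT-Tag tumors (n = 9), without passing (log2 0.71 ± 0.18, adjusted p = 0.191, limma). Pde5a had the largest difference in forebrain cultures (0.46 ± 0.11, adjusted p = 0.113, limma). The list median was 0.06 in tumors, 0.04 in forebrain and −0.04 in hindbrain cultures, against −0.01, 0.04 and 0.09 over all genes tested. The counts in these lists stand beside the shares of all genes called in either direction, 0.0846% in tumors, 0.356% in forebrain and 13.5% in hindbrain cultures.

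Cyclases, which make cAMP and cGMP, gave 0 of 14 in tumors, 0 of 11 in forebrain cultures and 3 of 11 in hindbrain cultures, all lower. These were Adcy8, at 1.07 ± 0.611 FPKM in K27M and 5.55 ± 4.13 FPKM in WT-Tag cultures (log2 −1.48 ± 0.41, adjusted p = 0.0363, limma), Gucy1a3 (−1.24 ± 0.33) and Gucy1a2 (−0.47 ± 0.14). The largest differences elsewhere were those of Adcy8 in tumors (0.62 ± 0.32) and Adcy2 in forebrain cultures (1.04 ± 0.45), which did not pass. The medians of the list were 0.15 in tumors, 0.12 in forebrain and −0.07 in hindbrain cultures. Over all genes tested in hindbrain cultures, 5.13% were called lower.

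Protein kinase A subunits and inhibitors gave 0 calls, of 8 tested in each of tumors, forebrain and hindbrain cultures, with medians of 0.09, 0.09 and 0.16. The largest differences were those of Prkar1b in tumors (0.41 ± 0.31), Prkar2b in forebrain (0.27 ± 0.13) and Pkia in hindbrain cultures (−0.41 ± 0.13). Protein phosphatase 1 subunits and inhibitors other than Ppp1r1a gave 0 of 11 in tumors and 0 of 9 in each region, with medians of −0.04, 0.16 and 0.12. The largest tumor difference among them was that of Ppp1r14a, at 7.77 ± 5.82 FPKM in K27M and 3.31 ± 2.18 FPKM in WT-Tag tumors (log2 0.82 ± 0.40, adjusted p = 0.692, limma), and in cultures they were those of Ppp1r14b in forebrain (0.40 ± 0.18) and Ppp1r2 in hindbrain (0.47 ± 0.15). Calmodulin and calcineurin genes gave 0 of 10 in tumors and 0 of 10 in forebrain cultures. The largest differences there were those of Calm3 in tumors (0.39 ± 0.22) and Rcan3 in forebrain cultures (−0.21 ± 0.12), short of the threshold. The medians were 0.20 and 0.04.

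None of the tested partners of Glycam1 passed the test in tumors. Of the 9 other genes for L-selectin and its ligands only 3 were tested in tumors and 0 passed, with a median of −0.11 and Selplg lowest at 7.24 ± 4.001 FPKM in K27M and 8.35 ± 3.73 FPKM in WT-Tag tumors. Of the enzymes that build the sugars L-selectin binds, 0 of 7 passed in tumors (median −0.15), with Gcnt1 at 1.85 ± 1.04 FPKM in K27M and 2.98 ± 1.68 FPKM in WT-Tag tumors (log2 −0.45 ± 0.19, adjusted p = 0.634, limma). In hindbrain cultures, where Glycam1 was near 0, the ligand gene Podxl (log2 0.64 ± 0.14) and the sulfotransferase gene Chst3 (0.62 ± 0.18) passed upward, 1 of 1 and 1 of 4 tested in their lists, against 8.42% of all genes called upward there. In forebrain cultures 0 of 1 and 0 of 4 did, at 0.27 ± 0.14 for Podxl and 0.61 ± 0.18 for Chst3.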

How the data were processed

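The authors deposited 1 table of FPKM values, rounded to 3 decimals. CASAVA, TopHat2, STAR and build mm9 are named, with no versions or roles, per the submitters' processing notes, and per the labels' protocols Trizol RNA went into stranded TruSeq libraries of total RNA. Counting tool and annotation: not given in the sources used here. FPKM is not a count, so the tests were moderated 2-sided ones (limma 3.58.1, R 4.3.3) of log2(FPKM + 1) that let the variance follow the mean, adjusted by Benjamini-Hochberg over all genes tested, with a threshold of 0.05. Tumors were fitted alone (FPKM of at least 1 in at least 9 tumors, 15360 genes) and the 12 cultures as 4 groups sharing 1 spread (at least 1 in at least 3, 13190 genes). Nothing in the labels says that tumors came from separate mice, so p-values measure the spread between these libraries. With 3 against 3, a permutation of a single value cannot go below 0.1. The scripts were tested on simulated data. The members, the 18 gene lists and the tests were chosen with earlier results of these data known. Named genes were the 3 members, the 5 genes most like each over K27M tumors, up to 10 protein-coding genes on either side, and, per list, those past the threshold or else the 1 with the largest change. A result that this rule would name is not reported here. Neighbors come from RefSeq, and symbols were matched through GENCODE release M21, both on a later build than mm9, so no mm9 coordinates are given. The experiment id of the cultures marks a shared experiment and so pairs them: deviations from group means correlated with a median of 0.26 over 18 same-experiment pairs (−0.45 to 0.71), against −0.11 over 36 other pairs. A fit with this replicate block was an alternative, as were other pseudocounts, filters, scalings, covariates and subsets.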

Additional observations from a re-analysis of the deposited data

Results flagged for a closer look

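Glycam1 in WT-Tag tumor 11 was flagged because at 1.649 FPKM it stood far from the other WT-Tag tumors, the next of which had 0.51 FPKM; the gap was 0.734 of the whole range of the 9 tumors, above Dixon's critical value for 9 samples. Among genes named in the text, Cbx5 in WT-Tag tumor 9 (66.751 FPKM, next 40.4 FPKM) and Papss2 in WT-Tag tumor 29 (7.461 FPKM, next 2.94 FPKM) were flagged in the same way. In all 25 genes were examined, and for normally distributed values chance alone flags about 1 group in 20. The gaps were taken on untransformed FPKM, for which that share was not measured and may be higher.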

How the results depend on the processing

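The tumor differences of Glycam1 and Ppp1r1a kept their direction under every alternative fitted, and Glycam1 was not testable in tumors labelled male. Since that contrast chose them, these values are description: Glycam1 was at 1.17 with the mature oligodendrocyte covariate and 1.63 in tumors labelled female, and Ppp1r1a at 0.66 with that covariate, 1.07 and 0.41 in tumors labelled female and male and 0.75 without WT-Tag tumors 8 and 9. In each of these settings the gene was no longer under the threshold of 0.05. Leaving out each tumor gave 1.41 to 1.59 for Glycam1, 0.66 to 0.88 for Ppp1r1a and 0.25 to 0.56 for Pde1b. Pde1b reversed with the oligodendrocyte covariate (−0.15) and in tumors labelled male (−0.0078; −0.33 without tumor 9, an alternative chosen after seeing the data). The number of genes called in tumors, 13, became 26 with no filter, 23 with a filter at 1 FPKM in 3 tumors, 7 with that covariate, 8 without tumors 8 and 9, 0 in tumors labelled female or male (1638 and 450 at an unadjusted p under 0.05), and 8 to 18 on leaving out a tumor, 8 without WT-Tag tumor 27.

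For Pde1b in hindbrain cultures the call was lost with no filter (0.61), quantile normalization (0.52), the 2 groups alone (0.61) and without experiment 3 (0.52), and leaving out each library gave 0.46 to 0.73. The replicate block kept it (0.61, adjusted p = 0.0402, limma), and the block or pairing changed no other call of the 3 genes. Ppp1r1a between regions of K27M cultures reversed without experiment 3 (−0.24) and ranged from −0.16 to 0.17 on leaving out libraries. The region dependence of Pde1b reversed without experiment 3 (−0.20) and ranged from −0.076 to 0.20. Called genes in forebrain cultures, 47, became 106 with quantile normalization, 85 with median ratio scaling, 80 in the 2 groups alone, 0 without experiment 3 (1110 at an unadjusted p under 0.05) and 20 to 178 on leaving out libraries. In hindbrain cultures 1787 became 1045, 286 and 97 with no filter, in the 2 groups alone and without experiment 3, and 554 to 4212, and the split of 1111 higher and 676 lower became 965 and 1096 with quantile normalization. Between regions, WT-Tag counts of 240 became 90 and 68 for the 2 groups alone and without experiment 3 (122 to 580), and K27M counts of 1044 became 315 without experiment 3 (493 to 1474). The 5 genes with region dependence became 8 with no filter and 0 with a pseudocount of 0.1, with the replicate block and without experiment 3 (817, 974 and 485 at an unadjusted p under 0.05), and 0 to 295.

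Removing the neuron marker level moved r within K27M tumors to 0.26 for Glycam1 and Pde1b and reversed it for Ppp1r1a and Pde1b (−0.29). Within WT-Tag tumors it reversed r for Glycam1 with Ppp1r1a (−0.28) and with Pde1b (−0.026). Correlations without tumors 8 and 9, and those with neuron markers under another pseudocount or without single tumors, were chosen after seeing the data and stayed inside the interval of the main value. Of 435 other results for listed genes, 382 were the same and 4 reversed: with the oligodendrocyte covariate Calm3 (−0.0022), Ppp1r14a (−0.037) and Prkar1b (−0.19) in tumors, and Selplg (0.0086) in tumors labelled female. Flanking genes had 0 calls in tumors and forebrain cultures in any setting, and 1 or 2 in hindbrain cultures in 4 of 21 settings. The cause of these changes was not tested. Few WT-Tag libraries and low Glycam1 fragment counts limit the precision.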
